A study of Danio rerio with 4 samples.

Results

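The genes that make cholesterol and fatty acids were followed in whole zebrafish larvae (*Danio rerio*) that lack normal *uhrf1*. The set comprised 30 named genes: 19 enzymes of sterol synthesis, 3 regulators, 2 genes of sterol uptake and transport, and 6 enzymes of fatty acid synthesis. A gene's row in the count table was found by matching its RefSeq accession to its zebrafish symbol, and 29 of the 30 had a row among 15171 rows in all. The fatty acid synthase gene *fasn* had none and is absent from what follows. All 29 passed the filter on low counts. Mutants were larvae homozygous for the hi272 allele of *uhrf1*, sorted by their phenotype at 5 days post fertilization (dpf), in 2 pools of 10 larvae. They were set against 2 pools of 10 phenotypically normal siblings of the same age, which mixed wild-type and heterozygous larvae. Total RNA was sequenced after removal of ribosomal RNA. Whole larvae were used, so in these bulk samples fewer cells of a type and less RNA per cell cannot be told apart.

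Animal cells build cholesterol from acetyl-CoA, first through mevalonate to farnesyl diphosphate and then through squalene and a series of sterol intermediates. Long-chain fatty acids are built from the same acetyl-CoA by a carboxylase, a synthase, elongases and desaturases. Both branches are under the SREBP transcription factors, which in mammals are held in the endoplasmic reticulum by Insig proteins when sterol is plentiful. Liver, intestine and, in fish larvae, the layer around the yolk are main sites of lipid handling.

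The gene counts came to 9100665 and 3299449 in mutants 1 and 2, and to 4981004 and 2996676 in siblings 1 and 2. Levels are given as CPM, which is the gene's count over its library's TMM-scaled size, where 1 count is worth between 0.110 and 0.314 CPM, and fold changes are mutant over sibling on the log2 scale with a standard error (SE). CPM is not corrected for gene length, so levels of different genes were not ranked. Sums over genes and shares of a paralog pair are read only between libraries, and genes with most reads weigh most in a sum. *uhrf1* itself stood at 33.3 and 24.2 CPM in mutants and at 21.4 and 46.8 CPM in siblings, so its count did not separate the groups and "mutant" means a library labelled so. With 2 pools against 2 no exact permutation test can give a two-sided p under 0.333, so tests are edgeR's quasi-likelihood test fitted across 12786 genes, and a gene passed at a Benjamini-Hochberg adjusted p under 0.05. The series' design text mentions 2 clutches and ties no pool to either, so the p-values measure only the spread between these pools. Markers of some organs moved as well, read against 3.79% of all genes called lower and 4.58% called higher. Of 9 hepatocyte markers 3 fell and 1 rose, with summed levels of 3344 and 4412 CPM in mutants and 6498 and 5739 CPM in siblings. Of 6 intestine markers 5 fell, with summed levels of 539 and 486 CPM in mutants and 1578 and 1441 CPM in siblings. Of 5 yolk and lipoprotein markers 1 fell and 1 rose, with a median of -0.0037. The marker that fell, *mttp*, is also counted in the cholesterol transport list below. The summed levels of the 5 were 16001 and 22696 CPM in mutants and 18017 and 19868 CPM in siblings. The falls were not limited to organs that handle lipid: all 4 lens markers fell, with summed levels of 206 and 173 CPM in mutants and 1741 and 1153 CPM in siblings. In other tissues 0 of 5 muscle, 0 of 4 neuron and 0 of 4 skin markers passed, and 1 of 4 glia and myelin markers fell. None of these markers was at 0 in all libraries.

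Among the 29 genes, the desaturase gene *scd* was the single one that passed the test in the main fit, which has no block. None of the 19 sterol enzymes passed there, and neither did the regulators or the uptake genes. With the replicate number as a block, *hmgcs1*, *hmgcra*, *tm7sf2*, *srebf2* and *insig1* passed as well. The sterol enzymes had a median log2 ratio of 0.77 between the 2 sibling pools and a median log2 fold change of 0.31 between the groups. The first sets 1 pool against 1 and the second 2 against 2, and sibling 1 enters both, so they are not like measures. Sibling 1 was lower than sibling 2 for each of the 19. The share of members called in the main fit, 3.45%, is to be read against 8.37% of all genes tested.

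**Figure D1:**
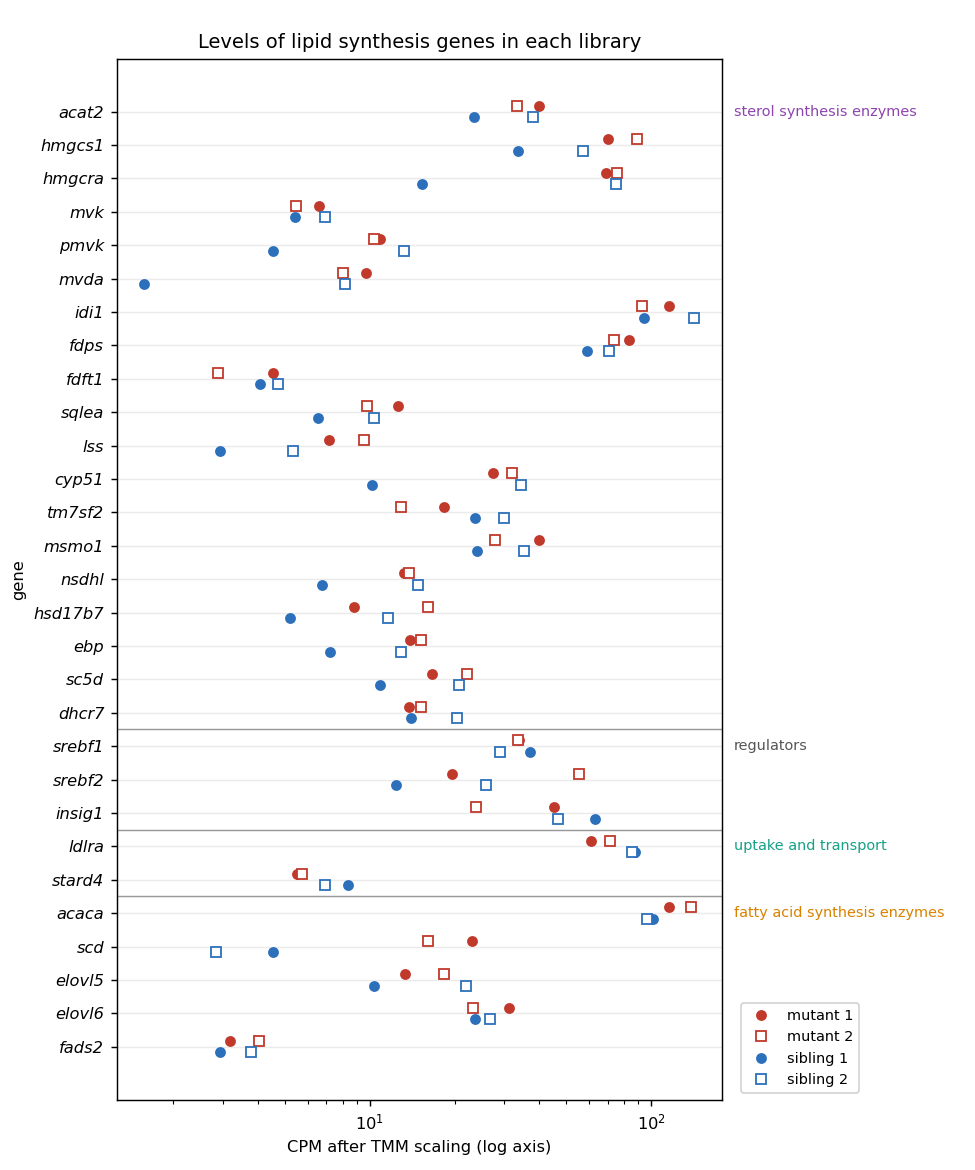
Level of each gene in CPM after TMM scaling (log axis), with mutant 1 and 2 in red above sibling 1 and 2 in blue, grouped by role. For *scd* both mutants (23.1 and 16.1 CPM) lie far to the right of both siblings (4.51 and 2.83 CPM), while for *hmgcra* sibling 1 (15.3 CPM) lies alone on the left.

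The early sterol enzymes turn acetyl-CoA into farnesyl diphosphate. *hmgcs1*, the HMG-CoA synthase, had 70.2 and 89.1 CPM in mutants and 33.6 and 57.2 CPM in siblings. Both mutants lay above both siblings, yet the log2 fold change of 0.82 (SE 0.27) missed the threshold after adjustment (edgeR adjusted p = 0.102). The next enzyme is *hmgcra*, the HMG-CoA reductase that limits the rate of the pathway and is the target of statins. It had 69.1 and 75.3 CPM in mutants and 15.3 and 74.8 CPM in siblings. Sibling 2 lay between the mutants and sibling 1 stood alone at the low end, and the fold change of 0.70 (SE 0.51, 95% interval -0.44 to 1.85) did not pass (edgeR adjusted p = 0.452). Its value was -0.06 without sibling 1 and 2.23 without sibling 2. Its paralog *hmgcrb* did not share this spread, with 49.1 and 56.9 CPM in mutants and 49.2 and 46.8 CPM in siblings. Of the summed reads of the pair, *hmgcra* held 58.5% and 57.0% in mutants, 23.8% in sibling 1 and 61.5% in sibling 2.

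*mvda*, the decarboxylase that forms isopentenyl diphosphate, repeated that pattern, with 9.69 and 8.05 CPM in mutants and 1.58 and 8.18 CPM in siblings. Its sibling 1 value rests on 7 counts. The phosphomevalonate kinase gene *pmvk* had 10.9 and 10.4 CPM in mutants and 4.51 and 13.2 CPM in siblings, again with sibling 1 alone at the low end. The other early enzymes differed less between libraries. *acat2*, the thiolase of the first step, had 39.8 and 33.4 CPM in mutants and 23.4 and 38.0 CPM in siblings. *fdps*, the farnesyl diphosphate synthase, had 83.4 and 73.9 CPM in mutants and 59.3 and 71.1 CPM in siblings, and its interval of -0.19 to 0.74 leaves out a 2-fold change. The isomerase gene *idi1* had 115 and 92.9 CPM in mutants and 94.2 and 142 CPM in siblings. The mevalonate kinase gene *mvk* had a log2 fold change of 0.0036 (SE 0.39) and overlapped between the groups. The 8 early enzymes had a median log2 fold change of 0.29.

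The later enzymes carry squalene to cholesterol. *lss*, the lanosterol synthase that closes the sterol rings, had 7.15 and 9.49 CPM in mutants and 2.93 and 5.35 CPM in siblings. Both mutants were above both siblings, with a fold change of 1.01 (SE 0.45) that did not pass (edgeR adjusted p = 0.205). *cyp51*, the lanosterol demethylase, had 27.4 and 31.9 CPM in mutants and 10.1 and 34.6 CPM in siblings, the spread seen for *hmgcra*. *ebp*, a sterol isomerase, had 13.9 and 15.2 CPM in mutants and 7.22 and 12.9 CPM in siblings, without overlap. *tm7sf2*, a sterol reductase, ran the other way, with 18.4 and 12.9 CPM in mutants and 23.7 and 29.9 CPM in siblings. It was the one sterol enzyme with both mutants below both siblings, and its value of -0.74 (SE 0.28) did not pass (edgeR adjusted p = 0.147). The reductase *dhcr7*, which makes cholesterol from its last precursor, had 13.8 and 15.2 CPM in mutants and 14.0 and 20.4 CPM in siblings.

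The remaining later enzymes overlapped between the groups. Their log2 fold changes were -0.17 for the squalene synthase gene *fdft1*, 0.44 for the squalene epoxidase gene *sqlea* and 0.22 for the methylsterol oxidase gene *msmo1*. The sterol dehydrogenase gene *nsdhl* stood at 0.35, the ketosterol reductase gene *hsd17b7* at 0.55 and the sterol desaturase gene *sc5d* at 0.30. The 11 later enzymes had a median of 0.35, close to that of the early ones.

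Over the 19 sterol enzymes the median log2 fold change was 0.31, against 0.0036 for all genes tested, and 15 of the 19 were above 0, as were 50.3% of all genes. None passed with edgeR without a block, DESeq2 or limma-voom. In the main fit 3 (*hmgcs1*, *lss* and *tm7sf2*) had an unadjusted edgeR p under 0.05, which is 15.8% against 23.3% of all genes. With the replicate number as a block in edgeR, *hmgcs1* and *hmgcra* passed as higher and *tm7sf2* as lower. Over all genes that fit called 1366 higher and 1165 lower, against 585 and 485 without a block. Both mutants were above both siblings for 4 enzymes (21.1%, against 28.0% of all genes) and below both for 1 (5.26%, against 26.9%). The remaining 14 overlapped. For 6 of the 19 the 95% interval left out a 2-fold change in either direction, while for 11 it reached a 2-fold rise and for 2 a 2-fold fall, so at this number of pools such changes were not excluded for most of them.

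The 2 sibling pools differed from each other in the same direction over the sterol enzymes, by amounts that varied from gene to gene. Sibling 2 was above sibling 1 for 19 of 19 sterol enzymes, against 50.2% of all genes tested, with a median log2 ratio of 0.77. It was more than 2-fold above for 6 of them (*hmgcra*, *mvda*, *cyp51*, *pmvk*, *hsd17b7* and *nsdhl*), against 3.97% of all genes. The log2 ratio was small for some others, with 0.26 for *fdps* and 0.22 for *fdft1*, which had 18 and 15 counts in siblings 1 and 2. The 2 mutant pools showed no such shift: mutant 2 was above mutant 1 for 9 of 19, against 49.7% of all genes, with a median log2 ratio of -0.07. The summed level of the 19 genes was 581 and 566 CPM in mutants and 353 and 612 CPM in siblings. Without sibling 1 the median fold change of the branch was -0.06. Without sibling 2 it was 0.82, with *hmgcra* at 2.23, *mvda* at 2.49, *cyp51* at 1.53 and *hmgcs1* at 1.24. The direction of the branch therefore rests on which sibling pool it is set against. The sibling pools mixed genotypes, and the clutch of each pool is not known here. The part of either in this spread was not tested.

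**Figure D2:**
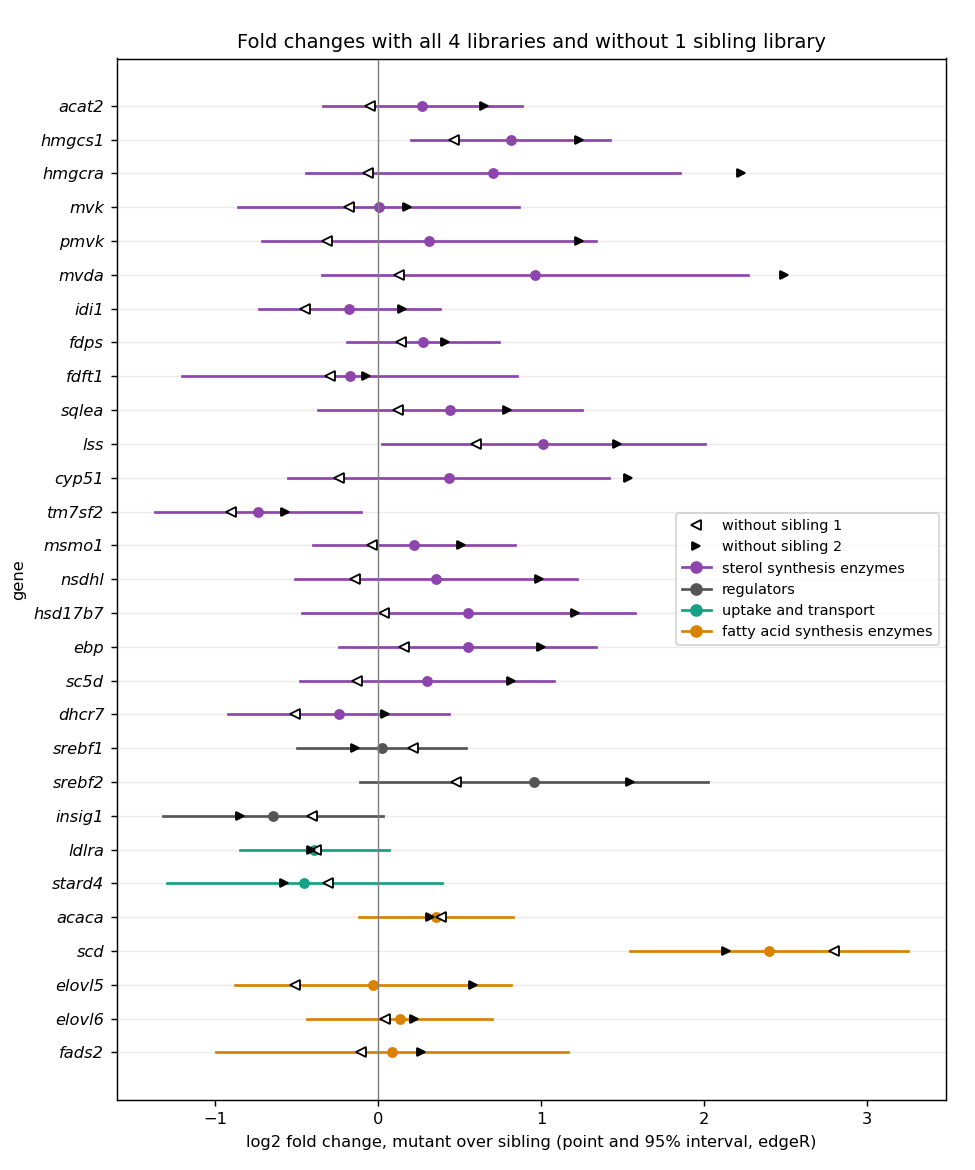
Log2 fold change of each gene, mutant over sibling, with its 95% interval from edgeR (points and lines, coloured by role), and the value without sibling 1 (open triangles) or without sibling 2 (filled triangles). For *hmgcra* the open triangle is at -0.06 and the filled one at 2.23, while for *scd* both lie above 2.

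The regulators of the pathway moved in no common direction. *srebf2*, the SREBP gene tied mainly to sterol synthesis in mammals, had 19.6 and 55.5 CPM in mutants and 12.4 and 25.8 CPM in siblings. Mutant 2 stood well above the other libraries, mutant 1 lay between the siblings, and the fold change of 0.96 (SE 0.48) did not pass (edgeR adjusted p = 0.266). It was 0.06 without mutant 2, 0.48 without sibling 1, 1.55 without mutant 1 and 1.54 without sibling 2. With the replicate number as a block it was 0.89 and passed. *srebf1*, tied mainly to fatty acid synthesis, was level, with 33.8 and 33.6 CPM in mutants and 37.2 and 28.9 CPM in siblings, and an interval of -0.50 to 0.54.

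*insig1* encodes the protein that retains SREBP and is itself an SREBP target in mammals. It had 45.1 and 23.9 CPM in mutants and 63.4 and 46.5 CPM in siblings. Both mutants were below both siblings, mutant 1 by little, and the value of -0.65 (SE 0.30) did not pass (edgeR adjusted p = 0.235). Without mutant 2 it was -0.29, without sibling 1 -0.40 and without mutant 1 -1.22. With the replicate number as a block it was -0.70 and passed. In mutant 2 the level of *srebf2* was thus the highest and that of *insig1* the lowest of the 4 libraries.

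Both uptake and transport genes were lower in each mutant than in each sibling, as were 26.9% of all genes, and neither passed. With 2 genes this count says little about the group. *ldlra*, the receptor that takes up low-density lipoprotein, had 61.0 and 71.6 CPM in mutants and 87.7 and 85.5 CPM in siblings. The value was -0.39 on the log2 scale (SE 0.20, edgeR adjusted p = 0.289). *stard4*, a carrier of sterol between membranes, had 5.50 and 5.75 CPM in mutants and 8.34 and 6.92 CPM in siblings, with a value of -0.45 (SE 0.38). Unlike the 19 enzymes, *stard4*, *insig1* and *srebf1* were lower in sibling 2 than in sibling 1. *ldlra* was nearly level between them (log2 ratio of sibling 2 to sibling 1 -0.04). *srebf2* was higher in sibling 2 (log2 ratio 1.06), as the enzymes were.

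In the fatty acid branch, *scd* encodes a stearoyl-CoA desaturase, which puts the first double bond into saturated fatty acids. It had 210 and 56 counts, or 23.1 and 16.1 CPM, in mutants and 20 and 9 counts, or 4.51 and 2.83 CPM, in siblings. Both mutants were far above both siblings, and the spread within each group was small beside the gap. It rose by a log2 fold change of 2.40 (SE 0.38, 95% interval 1.54 to 3.25, edgeR adjusted p = 0.00381), or 5.27-fold on the linear scale. It passed in the 12 alternatives other than the filter of at least 50 counts in 2 libraries, with values between 2.08 and 2.80. It meets that filter through the mutants alone, so its call there is no support. Its paralog *scdb* had 92.5 and 71.3 CPM in mutants and 104 and 105 CPM in siblings, lower in each mutant but not past the threshold (-0.35, SE 0.21, edgeR adjusted p = 0.368). Summed over the pair the level was 116 and 87.4 CPM in mutants and 109 and 108 CPM in siblings. The share held by *scd* was 20.0% and 18.4% in mutants and 4.14% and 2.62% in siblings. How reads common to these paralogs were assigned is not known here, and their sequence identity was not measured.

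The other fatty acid enzymes did not pass. *acaca*, the acetyl-CoA carboxylase that commits acetyl-CoA to fatty acids, had 116 and 139 CPM in mutants and 102 and 96.8 CPM in siblings. Both mutants were above both siblings, with a value of 0.36 (SE 0.21, 95% interval -0.11 to 0.83, edgeR adjusted p = 0.348), so a 2-fold rise lies outside its interval. *elovl6*, the elongase of saturated chains, had 31.3 and 23.3 CPM in mutants and 23.7 and 26.7 CPM in siblings. *elovl5*, the elongase of polyunsaturated chains, had 13.3 and 18.4 CPM in mutants and 10.4 and 22.0 CPM in siblings. It was the fatty acid gene with the spread of the sterol enzymes, more than 2-fold higher in sibling 2 than in sibling 1. *fads2*, the desaturase of polyunsaturated chains, was at 3.19 and 4.03 CPM in mutants and 2.93 and 3.77 CPM in siblings, and its interval of -0.99 to 1.17 is wide at 12 to 29 counts a library.

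Set side by side in the main fit, the sterol branch had 0 of 19 genes called and the fatty acid branch 1 of 5, against 8.37% of all genes. With so few genes these counts do not set the branches apart. The median log2 fold change was 0.31 in the sterol branch and 0.13 in the fatty acid branch, or 0.11 without *scd*. The difference of the medians, sterol minus fatty acid, was 0.18. It was -0.10 without sibling 1, -0.0074 without mutant 1 and 0.50 without sibling 2, so its sign is not settled by these libraries. The median deviation from each gene's own mean, on the scale of log2(CPM + 0.5), was 0.22 and 0.18 in mutants and -0.63 and 0.26 in siblings for the sterol enzymes. For the fatty acid enzymes it was 0.04 and 0.25 in mutants and -0.21 and 0.04 in siblings. Sibling 1 was the lowest library in both branches, by more in the sterol branch.

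**Figure D3:**
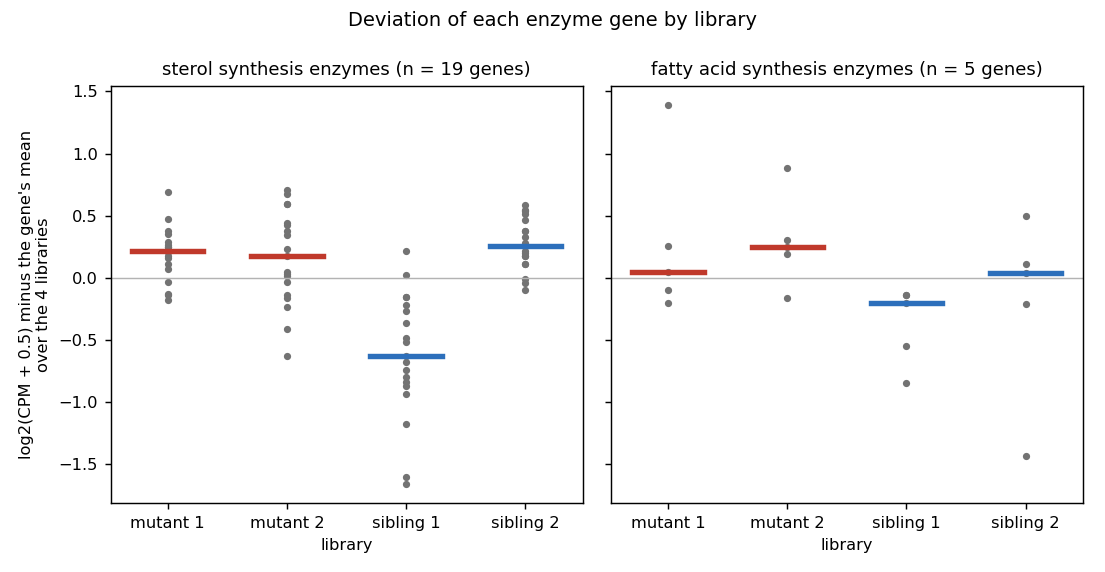
Deviation of each enzyme gene from its mean over the 4 libraries, on the scale of log2(CPM + 0.5), with 1 point per gene and a bar at the median (red for mutants, blue for siblings). The sterol median is -0.63 in sibling 1 and between 0.18 and 0.26 in the other 3 libraries. In the fatty acid panel *scd* gives the extreme points, at the top in both mutants and at the bottom in both siblings.

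Of 7 genes tested for bile acid and oxysterol synthesis, 4 fell and 1 rose, which is 71.4% called against 8.37% of all genes, with a median log2 fold change of -0.86. The list was chosen with earlier results of these data known, so this share is a description and no independent support. *cyp7a1*, the rate-limiting enzyme of bile acid synthesis, fell to 57.2 and 43.4 CPM in mutants, against 282 and 223 CPM in siblings (-2.32, SE 0.25, edgeR adjusted p = 0.00047). *cyp8b1.1*, which shapes the kind of bile acid made, fell to 31.9 and 18.4 CPM in mutants, against 84.3 and 118 CPM in siblings (-1.97, SE 0.29). The bile acid enzyme genes *hsd3b7* (-0.91, SE 0.22) and *slc27a2a* (-0.86, SE 0.22) also fell. *ch25h*, which makes an oxysterol from cholesterol and is induced by interferon in mouse, was the gene that rose (4.03, SE 0.51). It had 138 and 103 counts, or 15.2 and 29.6 CPM, in mutants. Siblings had 6 and 4 counts, or 1.35 and 1.26 CPM. It met the count filter through the mutants alone, so its call, counted in the 71.4%, is no support. With no count filter its value was 4.04. The value of *hsd3b7* was -1.06 without mutant 1 and -0.80 without mutant 2. That of *slc27a2a* was -0.68 without mutant 1 and -1.06 without mutant 2. Neither fall passed when library totals alone set the scale, leaving 2 lower, and that of *slc27a2a* did not pass in DESeq2. The summed hepatocyte markers were lower in both mutants too, with 3 of 9 past the threshold as lower and 1 as higher, and their part in these falls was not tested.

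Of 16 genes of cholesterol transport, esterification and export, 5 fell and 1 rose, which is 37.5% called against 8.37% of all genes, with a median of -0.14. This list too was chosen with earlier results of these data known, so its share is no independent support. *mttp*, which loads lipid onto lipoproteins, fell to 44.4 and 58.7 CPM in mutants, against 115 and 151 CPM in siblings (-1.38, SE 0.24, edgeR adjusted p = 0.00598). *scarb1*, the receptor for high-density lipoprotein, fell to 28.3 and 17.5 CPM in mutants, against 94.2 and 56.0 CPM in siblings (-1.69, SE 0.31). *abcg5* and *abcg8*, which pair as a sterol exporter of liver and gut, fell by 1.88 (SE 0.47) and 1.88 (SE 0.41) on the log2 scale, and the lipid transfer gene *cetp* fell by 1.86 (SE 0.45). *npc1*, which moves cholesterol out of lysosomes, rose to 133 and 168 CPM in mutants, against 76.9 and 66.3 CPM in siblings (1.07, SE 0.22, edgeR adjusted p = 0.0162). The calls of *abcg5* and *abcg8* were lost without mutant 1, that of *abcg8* also without sibling 1 and that of *npc1* without mutant 2. The value of *abcg5* was -1.20 without mutant 1 and -2.61 without mutant 2. That of *cetp* was -0.997 without sibling 1 and -1.52 without mutant 2, where its call was lost as in limma-voom, and -2.53 without mutant 1. The median of the list was -0.23 without mutant 1 and -0.15 without sibling 1. Of the intestine markers 5 of 6 fell too, and their part was not tested.

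Among 25 other genes of fatty acid synthesis, elongation and activation, 2 fell and 1 rose, with a median of -0.0025. The 12.0% called is near the 8.37% of all genes, so the count sets the list little apart and the values are those of single genes. *acsl5*, an acyl-CoA synthetase, fell to 32.7 and 22.1 CPM in mutants, against 193 and 153 CPM in siblings (-2.64, SE 0.26, edgeR adjusted p = 0.000293). *elovl2*, the elongase of very long polyunsaturated chains, fell to 15.3 and 10.1 CPM in mutants, against 51.0 and 66.7 CPM in siblings (-2.16, SE 0.28). *hsd17b12a*, a reductase of the elongation cycle, rose to 71.1 and 97.8 CPM in mutants, against 34.3 and 32.7 CPM in siblings (1.33, SE 0.23). Of 18 genes of triglyceride synthesis and the lipid droplet, 2 fell, with a median of -0.12, and the 11.1% called is again near the 8.37% of all genes. *dgat2*, an enzyme of the last step of triglyceride synthesis, fell to 69.5 and 80.5 CPM in mutants, against 200 and 196 CPM in siblings (-1.40, SE 0.22). The droplet protein gene *cideb* fell by 1.36 on the log2 scale (SE 0.27), and its value without mutant 2 was -1.28. The acyltransferase gene *dgat1a* stood at -0.90 (SE 0.25) and just missed the threshold (edgeR adjusted p = 0.0543). The median of the triglyceride and droplet list was -0.28 without sibling 2 and -0.05 without sibling 1. That of the elongation and activation list was -0.01 without sibling 2 and -0.11 without sibling 1.

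In 3 further lists no gene passed in edgeR without a block, in DESeq2 or in limma-voom. With the replicate number as a block in edgeR, *nus1*, *fntb*, *acox3*, *decr1* and *pparaa* passed. Of 11 other genes of sterol and isoprenoid synthesis, 4 had an unadjusted edgeR p under 0.05 (36.4%, against 23.3% of all genes), and the median was 0.30. The 3 with the lowest p were *nus1* (0.63, SE 0.22), a subunit of dolichol synthesis, and the farnesyltransferase subunit genes *fntb* (-0.66, SE 0.24) and *fnta* (0.71, SE 0.27). The 12 genes of SREBP processing and sterol sensing had none under 0.05 and a median of -0.14. They included the ubiquitin ligase gene *rnf145b* (-0.44, SE 0.22), the receptor adaptor gene *ldlrap1b* (1.24, SE 0.63) and the liver X receptor gene *nr1h3* (-0.38, SE 0.22). *ldlrap1b* had 24 and 21 counts in mutants and 9 and 4 in siblings, and met the count filter through the mutants alone. The 28 genes of fatty acid oxidation had 3 under 0.05 (10.7%) and a median of -0.20, led by the peroxisomal oxidase gene *acox3* (-0.77, SE 0.23), *decr1* (-0.65, SE 0.24) and the regulator gene *pparaa* (-0.72, SE 0.27). Without sibling 2 the farnesyltransferase gene *fntb* was at -0.90 and *pparaa* at -0.98, and without sibling 1 *acox3* was at -0.90. Without sibling 2, *mylipa* of the sensing list was at -0.84 and *hadhab* of the oxidation list at 0.88. *mylipa* and *hadhab* were named after their values had been seen.

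**Figure D4:**
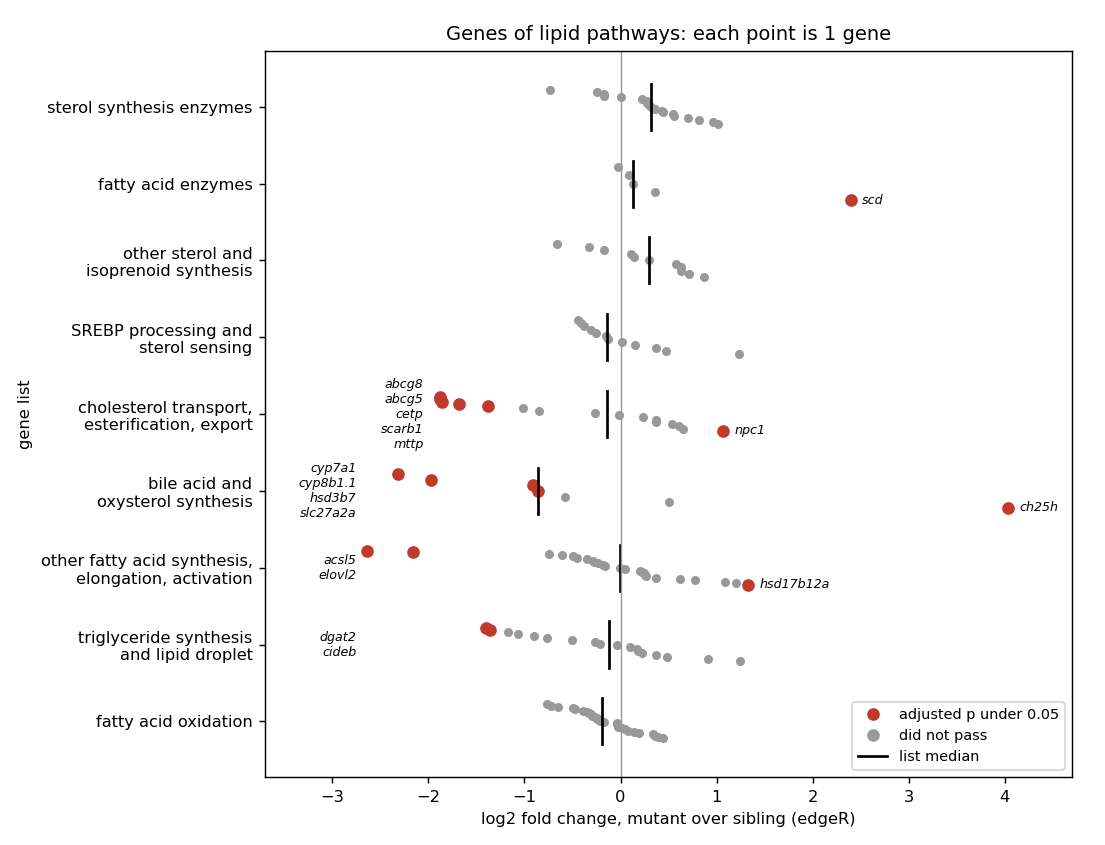
Log2 fold change, mutant over sibling, of every tested gene in the lipid lists, with 1 point per gene, red where the edgeR adjusted p was under 0.05 and a black bar at the list median. The sterol enzymes hold no red point, and *scd* is the single red point of the fatty acid enzymes. The bile acid and cholesterol transport lists hold 5 and 6, led by *ch25h* at 4.03 and *cyp7a1* at -2.32. *ch25h* met the count filter through the mutants alone.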

How the data were processed

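Per the labels, RNA of 2 mutant and 2 sibling pools was sequenced after Ribo-Zero Gold treatment. The deposited gene values are raw counts per RefSeq accession, with no normalization. The submitters' processing notes name Bowtie2 (2.1.0), HTSeq, DESeq2 and build GRCz10 without their roles. Annotation, strand setting and treatment of shared reads are not given there, so reads of overlapping genes or close copies cannot be told apart. Of 15171 rows, 14472 matched a symbol through RefSeq's GRCz12tu gene table. As that build differs from the files', positions are left out.

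edgeR 4.0.16 under R 4.3.3 was run with filterByExpr, TMM, glmQLFit and glmQLFTest, with no block. An SE is the fold change over the square root of its F statistic. Alternatives were DESeq2 1.42.0, limma-voom (limma 3.58.1), 3 other scalings, 2 other count filters, summed rows per symbol, a replicate block and leaving out each library. The test was also run on counts simulated from its own model of these data. That run cannot show how the test handles a shift of a single pool. Named were all members, the 3 genes of lowest p per list and other genes that passed. Members and lists were chosen with earlier results of these data known. The repeat table was not used.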

Additional observations from a re-analysis of the deposited data

How the results depend on the processing

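The number of members called was 1 higher (*scd*) and 0 lower in the main fit. It was the same in every alternative with all 4 libraries but the replicate block. The filter of at least 50 counts in 2 libraries is no support here, as *scd* met it through the mutants alone. With the replicate number as a block 4 members were called higher (*hmgcs1*, *hmgcra*, *srebf2* and *scd*) and 2 lower (*tm7sf2* and *insig1*). Over all genes 1366 were called higher and 1165 lower with the block, against 585 and 485 in the main fit. The deviations of same-numbered libraries correlated at 0.25 over 12786 genes. The labels tie no number to a clutch, so whether same-numbered pools share more than a number is not known here. In the fit with the block the named genes *nus1*, *fntb*, *dgat1a*, *acox3*, *decr1* and *pparaa* also passed, as did other genes of the lipid lists not named here. The fits that left out 1 library are read here by their effect sizes. The median log2 fold change of the sterol enzymes ranged over those fits from -0.061 (without sibling 1) to 0.82 (without sibling 2), that of the fatty acid enzymes from 0.042 to 0.32, and the difference of the branches from -0.10 to 0.50, with -0.0074 without mutant 1. Fewer samples entered each of these fits. Each left 1 pool in 1 of the groups, so counts of genes passing in them are not set against the main fit. With all 4 libraries, *scd* kept its call in each alternative, the filter of at least 50 counts set aside. With the block 5 members newly passed. A value called in neither fit could still change sign. That of *mvk* and of *elovl5* did so in 5 alternatives each, and that of *hmgcra* and of *cyp51* in 1 each. Other scalings moved the median of all genes by less than 0.1. Depth limits *fads2*, *fdft1*, *lss*, *mvda*, *mvk* and *scd*, with under 20 counts in at least 1 library. Among the other lists, triglyceride and droplet genes had 2 lower in the main fit, against 5 with no count filter and 6 with the block, and elongation and activation genes had 1 higher, against 3 and 4. A filter of at least 50 counts in 2 libraries left 20 of 29 members.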

Other observations

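Some sterol enzymes were among the genes that differed most between the 2 sibling pools. Among 11748 genes with a mean of at least 5 CPM, ordered by the ratio of sibling 2 to sibling 1 on the scale of log2(CPM + 0.5), *hmgcra* was at place 4 (2.25) and *mvda* at place 8 (2.06). *cyp51* was at place 23 and *pmvk* at place 52, while *idi1* was at place 1085, *tm7sf2* at 2520, *mvk* at 2531 and *fdps* at 3074, the last of the 18 sterol enzymes at that level. The ordering was added after the values had been seen. The genes above or between the first 2 were *timm10*, *haus3*, *btr29*, *hmmr*, *cfhl2* and *si:ch211-132b12.6*, of which *hmmr* and *haus3* are genes of the mitotic spindle. *scd* was near the other end, at place 10441, with a ratio of -0.59.

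No other lipid list showed the sibling difference to that extent. The median log2 ratio of sibling 2 to sibling 1 was 0.77 for the sterol enzymes, 0.17 for the fatty acid enzymes, 0.20 for the other genes of fatty acid synthesis, elongation and activation, 0.13 for fatty acid oxidation, 0.12 for other sterol and isoprenoid genes and 0.0033 for triglyceride and droplet genes, with 0.01 for SREBP processing and sterol sensing. It was -0.26 for cholesterol transport and 0.02 for bile acid and oxysterol synthesis, the lists that held the most calls between mutants and siblings. All these lists were chosen with earlier results of these data known.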
